A study of Mus musculus with 9 samples.

Results

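Livers of acetaminophen-injected mice labelled as Adipor2 knockouts were compared between leonurine and saline across 10079 genes of the 16857 in the expression table. Acetaminophen (APAP) is a painkiller that injures hepatocytes in overdose, and leonurine, also called SCM-198, is an alkaloid of motherwort. The groups used were labelled Adipor2 knockouts given APAP and leonurine (2 libraries), labelled Adipor2 knockouts given APAP and saline (2 libraries), wild-type mice given APAP and leonurine (2 libraries) and wild-type mice given APAP and saline (3 libraries). All 9 libraries are therefore from APAP-injected mice, and no uninjected liver is analysed here. Sex, age, strain, dose, sampling time, and the exons removed from Adipor2 are not given in the sources used here. Member genes were those with an FPKM (fragments per kilobase of transcript, scaled for library size) reaching 1 in 2 or more of the 4 labelled knockout libraries. This kept 10119 genes, from which 40 were left out, 4 of them Y-linked and 36 from families known for sex-biased liver expression (Mup, Cyp2b, Cyp3a41, Cyp3a44, Cyp4a12, Cyp2a4, Sult2a and Sult3a).

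AdipoR2 is a receptor of the fat-derived hormone adiponectin that is abundant in hepatocytes and is known for its links to PPAR-alpha, AMPK and lipid oxidation. The series title joins it to calmodulin, the kinase CaMKII and the nitric oxide synthase encoded by Nos3, so the comparison addresses what leonurine does in mice labelled as lacking the receptor. In hepatocytes APAP is turned into a reactive product by cytochrome P450 enzymes and removed by glucuronidation, sulphation and glutathione conjugation. Mouse liver also has a strong sex-biased program, set by the pulse pattern of growth hormone through the transcription factor STAT5, with Cux2 and Bcl6 as opposing regulators.

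Adipor2 itself (GRCm38.p6, chromosome 6, 119353150 to 119417699) was measured at 75.7 and 85.0 FPKM in leonurine-treated labelled knockouts and at 70.1 and 76.0 FPKM in saline-treated labelled knockouts. It was at 78.5 and 88.2 FPKM in wild-type leonurine libraries, against 141, 126 and 135 FPKM in wild-type saline libraries. The labelled knockouts thus retained reads over the gene, at a level that overlapped wild-type leonurine libraries, and they are called labelled knockouts here for that reason. Between leonurine and saline within them Adipor2 differed by 0.13 ± 0.17 (log2 of FPKM plus 1, ± standard error) and did not pass the test (limma, adjusted p = 0.661).

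The 2 labelled knockout groups were not matched for Y-linked genes. Ddx3y, a Y-linked RNA helicase, was at 0 and 0 FPKM in the leonurine libraries against 14.7 and 11.96 FPKM in the saline libraries. Kdm5d, a Y-linked histone demethylase, was at 0 and 0 FPKM in leonurine libraries and 2.27 and 3.10 FPKM in saline libraries, and its neighbour Uty was at 0 and 0 FPKM against 1.72 and 1.49 FPKM. All 5 wild-type libraries had Ddx3y, between 10.2 and 14.3 FPKM. The same split was seen in the left-out autosomal families. Cyp2b9, a P450 known as female-predominant, was at 255 and 172 FPKM in leonurine libraries against 0.862 and 1.82 FPKM in saline libraries, and Mup7, a male-predominant urinary protein, was at 1.30 and 1.63 FPKM against 2619 and 1491 FPKM. Every difference below is therefore one between groups that differed in treatment and in these genes at once, and the part of each cannot be told apart.

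Each library held between 35316653 and 38996734 fragments, and the 4 labelled knockout libraries between 35640219 and 37236695. Hepatocyte markers were the most abundant of the cell type lists, with summed levels of 80396 and 81786 FPKM in leonurine libraries and 62572 and 63514 FPKM in saline libraries. The labels do not tie libraries to individual mice, so p-values measure the spread between these libraries, which may be technical. The median gap between the 2 libraries of a group, per member gene on the log2 scale, was 0.24 for labelled knockout leonurine, 0.224 for labelled knockout saline and 0.249 for wild-type leonurine.

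Few genes passed the test in the labelled knockouts, and most of those that did were lower with leonurine. Of the 10079 members, 50 rose and 133 fell at an adjusted p under 0.05 (limma on all 9 libraries), so 27.3% of the called members were higher. Over all 10451 genes tested, 0.603% were called higher and 1.49% lower, against 0.496% and 1.32% of the members. Called members counted in the lists below are to be read against these shares, and a short list is too small for 1 call to be set against them. An unadjusted p under 0.05 was reached by 2267 of the 10079 members. The list counts at this threshold for the labelled knockouts, given below, are to be read against that share. Groups that did not overlap, with both leonurine libraries above or both below both saline libraries, were seen in 853 members on the higher side and 4129 on the lower side, against 8.61% and 40.8% of all genes tested. The members as a whole lay lower in leonurine libraries, with a median log2 difference of -0.19. Scaling each library by its median ratio to the others brought that median to -0.02, a shift of 0.17, and changed the split to 103 higher and 69 lower, while quantile normalization gave 86 higher and 70 lower. Of the rises, 18 reached an FPKM of 1 in neither saline library, and of the falls 30 did so in neither leonurine library, so these had met the level rule through 1 group. A gene that is slightly lower in FPKM is thus to be read against this shift, and so are the list medians below, which are given as measured unless they are said to be relative to all members. Of 50 called genes chosen for naming, 6 were no longer called after median-ratio scaling, namely Cd163, C9, Id1, Btg3, Elovl3 and Cyp7b1 (adjusted p between 0.0501 and 0.116), and quantile normalization ended these 6 calls and those of Hal and Chac1 (adjusted p between 0.054 and 0.154). Of the called members, 38 (16 higher and 22 lower) stayed called whichever 1 of the 9 libraries was left out. The count of higher members was 28 without leonurine library 1, 22 without saline library 1, 27, 29 and 27 without each wild-type saline library and 81 without either wild-type leonurine library. The count of lower members was 73 without leonurine library 2, 41 and 55 without saline libraries 1 and 2, 73, 68 and 55 without each wild-type saline library, and 200 and 199 without each wild-type leonurine library.

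**Figure D1:**
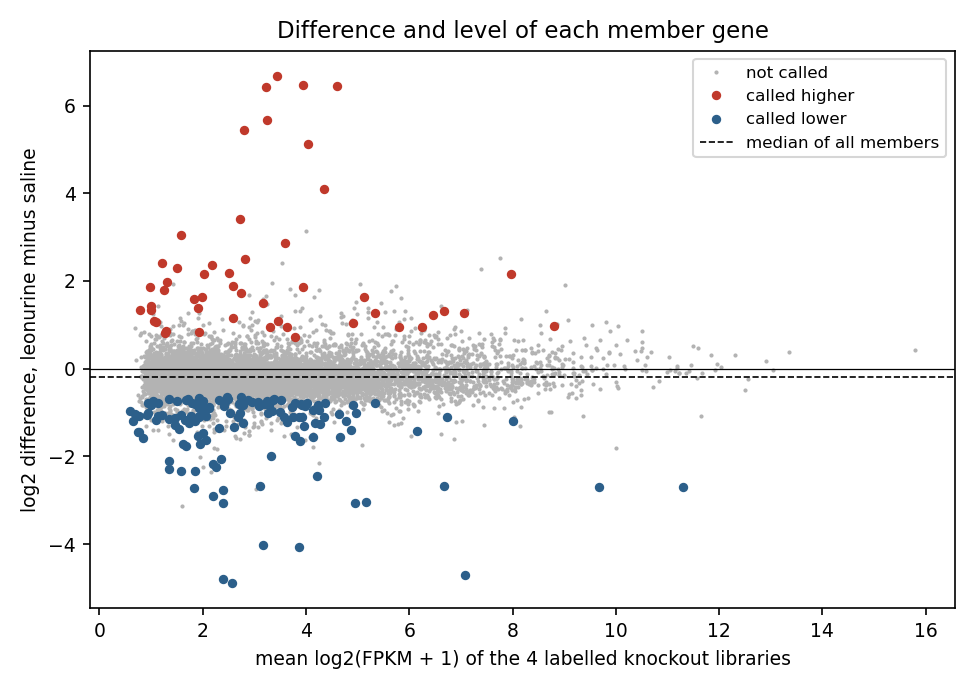
Each point is 1 of the 10079 member genes, with its mean level over the 4 labelled knockout libraries (log2 of FPKM plus 1) on the horizontal axis and the log2 difference, leonurine minus saline, on the vertical axis. The 50 called higher and 133 called lower genes are coloured, and the dashed line marks the median of all members at -0.19.

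The largest rises included cytochrome P450s and transporters, several of them known for female-predominant expression in mouse liver. A list of 16 further female-biased members, not among the families left out, had 9 called higher and none lower, with a median log2 difference of 2.17 against -0.19 over all members. A list of 15 further male-biased members had none called higher and 10 lower, with a median of -2.76. Of the 15 largest rises 6 were on the female list, and of the 15 largest falls 8 were on the male list. These genes were listed for their known sex bias, and the mismatch between the groups and the treatment cannot be told apart in their counts. Leaving out the sex-biased lists left 41 higher and 123 lower members. The lists are not complete, and these members still include genes known for sex bias, among them Cyp3a16, Serpina1e and Selenbp2. The counts therefore do not separate a part free of sex-biased genes.

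A1bg (chromosome 15, 60917589 to 60921270), which encodes a plasma glycoprotein of the immunoglobulin superfamily, had the largest rise. It was at 172 and 68.2 FPKM in leonurine libraries against 0.0307 and 0.121 FPKM in saline libraries, a log2 difference of 6.67 ± 0.37 (adjusted p = 1.36e-05). The wild-type libraries sat with the saline libraries, between 0.0422 and 0.595 FPKM in all 5. Fmo2, a flavin-containing monooxygenase, was at 11.1 and 11.1 FPKM in leonurine libraries against 1.90 and 1.45 FPKM in saline libraries (log2 difference 2.18 ± 0.27, adjusted p = 0.00286). In both genes the leonurine and saline libraries did not overlap, which for A1bg the choice of genes required. A1bg had met the level rule through its leonurine libraries alone.

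Cyp2c69 and Cyp2c40, near-identical neighbours on chromosome 19 among which reads can be split, moved together. Cyp2c69 was at 188 and 110 FPKM in leonurine libraries against 1.19 and 0.233 FPKM in saline libraries (log2 difference 6.46 ± 0.44, adjusted p = 5.76e-05). Cyp2c40 was at 124 and 74.0 FPKM against 4.14 and 0.489 FPKM (log2 difference 5.13 ± 0.63, adjusted p = 0.00306). Cyp3a16, a P450 of the Cyp3a cluster on chromosome 5 that is also known for sex-biased expression, was at 89.1 and 22.2 FPKM with leonurine and at 0.0768 and 0.0151 FPKM with saline (log2 difference 5.45 ± 0.47, adjusted p = 0.000256). For each of the 3 the groups did not overlap, which the choice of genes required, and Cyp3a16 had met the level rule through its leonurine libraries alone. Leonurine library 1 was the higher of its pair in 14 of the 15 largest rises and in 14 of the 16 female-biased members, whose summed level was 947 and 463 FPKM in leonurine libraries against 128 and 135 FPKM in saline libraries.

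Slc22a26 and Slc22a27, neighbouring organic anion transporter genes on chromosome 19, also rose. Slc22a26 was at 79.3 and 56.5 FPKM in leonurine libraries against 0.230 and 0.445 FPKM in saline libraries (log2 difference 5.67 ± 0.35, adjusted p = 2.65e-05), and Slc22a27 at 22.8 and 18.4 FPKM against 0.997 and 1.06 FPKM (log2 difference 3.41 ± 0.24, adjusted p = 7.28e-05). Cux2, the STAT5-regulated repressor of male-biased genes, was at 7.31 and 2.44 FPKM with leonurine and at 0.00314 and 0.0123 FPKM with saline (log2 difference 2.41 ± 0.36, adjusted p = 0.00905). Hao2, a peroxisomal hydroxyacid oxidase, was at 15.2 and 3.59 FPKM against 0.0381 and 0.0499 FPKM (log2 difference 3.04 ± 0.44, adjusted p = 0.00774). The Hao2 call ended without saline library 1 (adjusted p = 0.0693), and the Cux2 call without saline library 1 (0.0731) or 2 (0.0519). Prlr, the prolactin receptor, was at 28.6 and 27.8 FPKM in leonurine libraries against 6.81 and 7.16 FPKM in saline libraries, with a log2 difference of 1.87 ± 0.37 (adjusted p = 0.0344), and this call ended on leaving out any 1 of the labelled knockout or wild-type saline libraries.

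The promoters of 4 of these rising genes are shown because they carry matches to the site of STAT5, TTCNNNGAA, or to ATCAAT, a core letter string of sites of the liver factor HNF6. The sequences are RefSeq promoters of GRCm38.p6, 250 bases before to 50 bases after the annotated start, read along the gene's strand, and capitals mark the matches on either strand (ATTGAT is ATCAAT on the opposite strand). A1bg lies at chr15:60921221-60921520 (minus strand), Hamp2 at chr7:30924132-30924431 (minus strand), Slc22a26 at chr19:7802618-7802917 (minus strand) and Cyp3a16 at chr5:145469674-145469973 (minus strand).
A1bg: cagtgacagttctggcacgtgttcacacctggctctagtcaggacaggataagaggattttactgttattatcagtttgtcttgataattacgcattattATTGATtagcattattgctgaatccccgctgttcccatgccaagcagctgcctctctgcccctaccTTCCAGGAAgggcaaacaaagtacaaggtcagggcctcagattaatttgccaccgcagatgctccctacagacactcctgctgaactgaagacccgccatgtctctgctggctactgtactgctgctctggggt
Hamp2: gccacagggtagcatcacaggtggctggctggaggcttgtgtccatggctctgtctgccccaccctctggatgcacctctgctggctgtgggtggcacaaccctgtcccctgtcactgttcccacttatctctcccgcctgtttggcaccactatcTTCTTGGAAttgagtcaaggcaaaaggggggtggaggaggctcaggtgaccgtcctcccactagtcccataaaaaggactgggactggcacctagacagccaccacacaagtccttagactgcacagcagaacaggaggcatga
Slc22a26: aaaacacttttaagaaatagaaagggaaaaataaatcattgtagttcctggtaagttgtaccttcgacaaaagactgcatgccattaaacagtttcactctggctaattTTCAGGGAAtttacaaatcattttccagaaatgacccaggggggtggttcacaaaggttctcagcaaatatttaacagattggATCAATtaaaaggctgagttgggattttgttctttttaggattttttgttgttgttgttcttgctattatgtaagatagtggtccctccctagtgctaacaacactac
Cyp3a16: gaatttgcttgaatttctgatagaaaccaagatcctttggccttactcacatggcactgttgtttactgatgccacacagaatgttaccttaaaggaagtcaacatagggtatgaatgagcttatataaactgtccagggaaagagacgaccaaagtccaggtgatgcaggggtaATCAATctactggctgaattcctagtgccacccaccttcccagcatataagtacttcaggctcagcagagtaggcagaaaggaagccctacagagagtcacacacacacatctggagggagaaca
Of the 15 largest rises 13 had a promoter in the table, and 3 of these 13 held TTCNNNGAA (A1bg, Hamp2 and Slc22a26), against none of 12 of the largest falls and 8.3% of all 32851 promoters. Here and below the 13 and 12 are genes, counted if any of their promoters held the string. The percentages are shares of single promoters, and some genes have more than 1, so the measures are not the same. ATCAAT was in 6 of the 13 (A1bg, Cyp2c40, Cyp2c69, Cyp3a16, Slc22a26 and Ugt1a5), in 1 of the 12 (Serpina1e) and in 7.54% of all promoters. Cyp2c40 and Cyp2c69 share most of their promoter letters and do not count as separate cases. The other 14 motifs searched on both strands were the E-box (CACGTG), the STAT site with a spacer of 4 bases, the HNF4 direct repeat, the CCAAT box, a GATA site (AGATAA), the TATA box (TATAAA), another HNF6 string (ATCGAT), the antioxidant element core (TGANNNNGC), a BCL6 site that overlaps TTCNNNGAA (TTCCTAGAA), the HNF1 site, an ETS site (CCGGAAG), the sterol element of SREBP, an E2F site (TTTCGCG) and the cell cycle element CHR (TTTGAA). Of these TATAAA was in 5 of 13 rises, 3 of 12 falls and 13.6% of all promoters, TTTGAA in 5, 2 and 17.9%, CCAAT in 3, 6 and 37.4%, TGANNNNGC in 6, 6 and 41.3%, AGATAA in 2, 1 and 11.2%, the STAT site with a spacer of 4 in 1, 2 and 6.95%, ATCGAT in 1, 1 and 0.925%, and CACGTG in 1, 0 and 7.15%. The remaining 6 were in none of the 13 or the 12, and in all promoters CCGGAAG reached 8.86%, TTTCGCG 0.849%, TTCCTAGAA 0.411%, the sterol element 0.0913%, the HNF1 site 0.0609% and the HNF4 repeat 0.0396%. The 2 motifs marked were picked for display after the counts of 16 searched motifs had been seen, and a match is a string of letters, not a shown binding site.

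**Figure D2:**
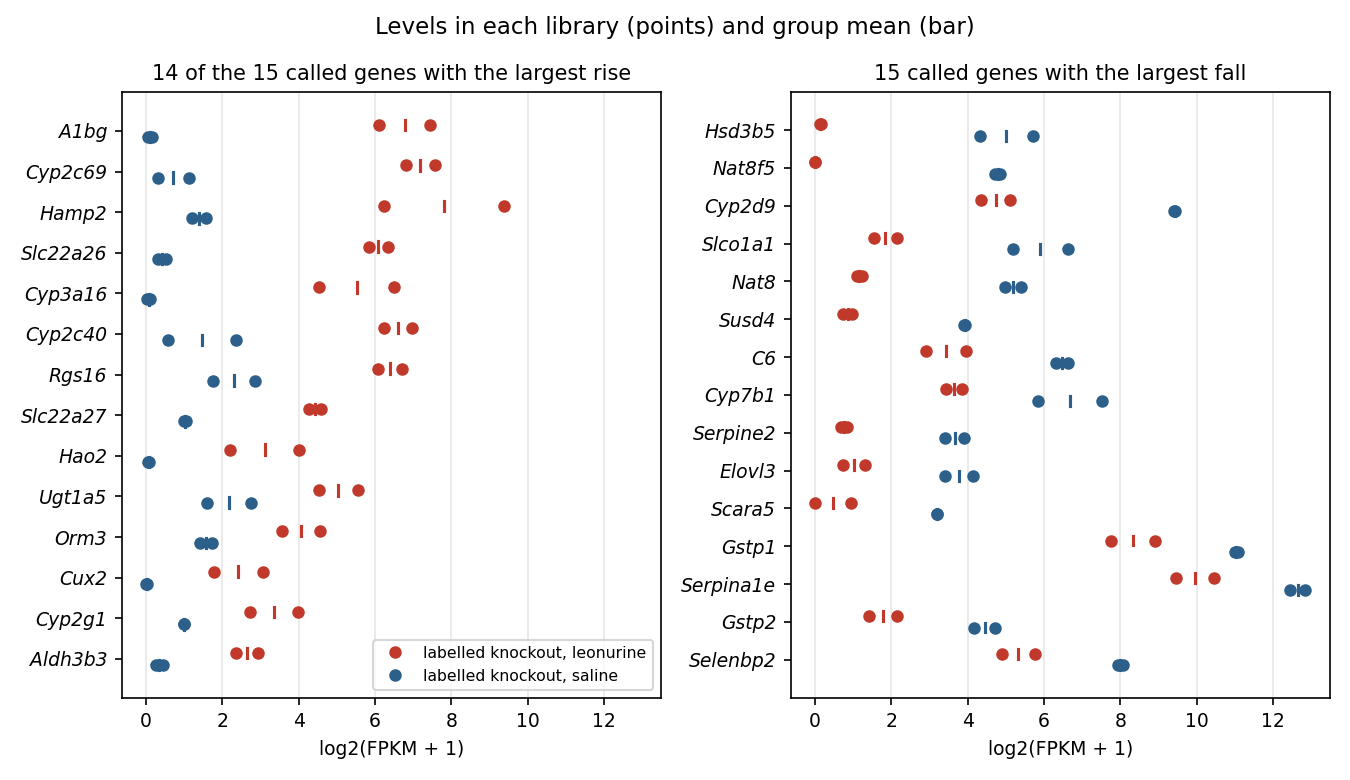
Level of 14 of the 15 called genes with the largest rise (left) and the 15 with the largest fall (right) on log2(FPKM + 1), with a point for each labelled knockout library, leonurine above saline in each row, and a bar at the group mean. No pair of groups overlaps, which the choice of genes required, and A1bg and Hsd3b5 head the rows at log2 differences of 6.67 and -4.87.

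Several other leading rises are not on the female list. Hamp2, a hepcidin paralogue of the iron hormone family, was at 668 and 74.4 FPKM in leonurine libraries against 1.28 and 1.95 FPKM in saline libraries, a log2 difference of 6.43 ± 0.96 (adjusted p = 0.0094). Its 2 leonurine libraries stood far apart, and the call ended without saline library 1 (adjusted p = 0.0846) or 2 (0.0505). Rgs16, a regulator of G-protein signalling that responds to glucose in liver, was at 103 and 66.6 FPKM against 2.36 and 6.22 FPKM (log2 difference 4.09 ± 0.64, adjusted p = 0.0123). This call ended without leonurine library 1 (0.0648) or saline library 1 (0.109). Ugt1a5, a glucuronosyltransferase that shares its downstream exons with the rest of the Ugt1a cluster, was at 45.5 and 22.2 FPKM with leonurine and at 2.01 and 5.70 FPKM with saline (log2 difference 2.87 ± 0.40, adjusted p = 0.00665). Aldh3b3, an aldehyde dehydrogenase, was at 6.64 and 4.12 FPKM against 0.192 and 0.352 FPKM (log2 difference 2.30 ± 0.22, adjusted p = 0.00051). Cyp2g1, a P450 best known from olfactory mucosa, was at 14.9 and 5.63 FPKM against 0.983 and 0.994 FPKM, with a log2 difference of 2.37 ± 0.34 (adjusted p = 0.00736, and 0.0662 without saline library 1).

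Several of the largest falls were in genes known as male-predominant. Hsd3b5 (chromosome 3, 98618636 to 98645534), a steroid dehydrogenase, was at 0.118 and 0.0834 FPKM in leonurine libraries against 51.6 and 18.8 FPKM in saline libraries, a log2 difference of -4.87 ± 0.50 (adjusted p = 0.000897). Hsd3b5 also fell in wild type, at 1.64 and 0.143 FPKM with leonurine against 22.8, 44.0 and 42.1 FPKM with saline (log2 difference -4.37, limma, adjusted p = 0.00209). Its 2 responses were not called different (adjusted p = 0.734). Cyp2d9, a testosterone hydroxylase, was at 19.2 and 33.7 FPKM against 683 and 692 FPKM (log2 difference -4.70 ± 0.27, adjusted p = 1.97e-05). Slco1a1, an organic anion uptake transporter, was at 1.91 and 3.39 FPKM against 97.0 and 35.7 FPKM (log2 difference -4.07 ± 0.51, adjusted p = 0.00328). The 15 male-biased members summed to 602 and 355 FPKM in leonurine libraries against 3564 and 3190 FPKM in saline libraries, and the wild-type libraries lay at 1326 and 902 FPKM with leonurine against 2643, 2881 and 3440 FPKM with saline.

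C6, a terminal complement component whose male predominance in mouse liver is known, was at 6.47 and 14.4 FPKM with leonurine and at 78.5 and 98.6 FPKM with saline (log2 difference -3.05 ± 0.30, adjusted p = 0.000645). Susd4, a complement inhibitor, was at 0.671 and 0.960 FPKM against 14.1 and 14.3 FPKM (log2 difference -3.07 ± 0.29, adjusted p = 0.000517). Cyp7b1, the oxysterol hydroxylase of the acidic bile acid pathway, was at 13.4 and 9.76 FPKM with leonurine and 182 and 56.8 FPKM with saline, with a log2 difference of -3.05 ± 0.56 (adjusted p = 0.026). Leaving out leonurine library 1 or 2 or saline library 1 ended the Cyp7b1 call, with adjusted p up to 0.138. Elovl3, a fatty acid elongase, was at 0.670 and 1.47 FPKM against 16.6 and 9.65 FPKM (log2 difference -2.76 ± 0.57, adjusted p = 0.0426). The Elovl3 call ended without any 1 labelled knockout library or without wild-type saline library 2 or 3, with adjusted p up to 0.201.

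Falls outside the male list included a pair of acetyltransferase genes on chromosome 6. Nat8f5 was at 0 and 0 FPKM in leonurine libraries against 25.4 and 28.0 FPKM in saline libraries, at least 626-fold lower when the leonurine group is set at 3 fragments over both libraries (adjusted p = 0.000159). Its neighbour Nat8, which encodes a cysteine conjugate acetyltransferase that works downstream of glutathione conjugation, was at 1.34 and 1.13 FPKM against 40.7 and 30.5 FPKM (log2 difference -4.02 ± 0.33, adjusted p = 0.000176). Both genes belong to a family of close copies, among which reads can be split. The wild-type libraries were lower with leonurine in both genes too, at 7.17 and 2.13 FPKM against 11.6, 11.9 and 18.2 FPKM for Nat8f5.

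Serpine2, a secreted thrombin inhibitor, was at 0.613 and 0.777 FPKM in leonurine libraries against 13.9 and 9.65 FPKM in saline libraries (log2 difference -2.89 ± 0.20, adjusted p = 7.25e-05). All 5 wild-type libraries lay between these groups, between 2.79 and 4.602 FPKM. Serpina1e, a member of the duplicated alpha-1 antitrypsin cluster in which reads can be split, was at 707 and 1389 FPKM with leonurine against 7350 and 5571 FPKM with saline (log2 difference -2.69 ± 0.37, adjusted p = 0.00618, and 0.0644 without saline library 1). Selenbp2, a selenium-binding protein gene with a near-identical paralogue, was at 28.5 and 53.4 FPKM against 244 and 267 FPKM (log2 difference -2.67 ± 0.40, adjusted p = 0.00971). That call ended without leonurine library 1 (0.0537) or either saline library (0.0694 and 0.057). Scara5, a scavenger receptor for ferritin, was at 0.00479 and 0.910 FPKM against 8.17 and 8.18 FPKM (log2 difference -2.73 ± 0.48, adjusted p = 0.0217). Its call ended without leonurine library 1 or either saline library, with adjusted p up to 0.129. Both Serpina1e and Selenbp2 are also known for sex-biased expression in mouse liver. In wild type Selenbp2 fell too, at 66.7 and 27.1 FPKM with leonurine against 380, 299 and 300 FPKM with saline (limma, adjusted p = 0.00428). Serpina1e was at 5998 and 8961 FPKM against 6215, 7534 and 9067 FPKM in wild type and was not called there (adjusted p = 0.962).

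Cdh1, which encodes E-cadherin of epithelial junctions, was at 0.688 and 1.88 FPKM in leonurine libraries against 7.68 and 11.7 FPKM in saline libraries, a log2 difference of -2.25 ± 0.26 (adjusted p = 0.00228). The 5 wild-type libraries lay between 7.55 and 9.87 FPKM, with the saline libraries of the labelled knockouts. Of the 13 epithelial junction members Cdh1 was the 1 called, and 13 members are too few to set 1 call against the 1.49% of all genes tested called lower. Cldn1, a tight junction claudin, was at 12.5 and 11.2 FPKM with leonurine and 20.5 and 20.9 FPKM with saline and did not pass the test (adjusted p = 0.115). Ctnnb1, the partner of cadherins in the junction, was at 56.1 and 60.2 FPKM against 75.7 and 73.3 FPKM (adjusted p = 0.223).

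**Figure D3:**
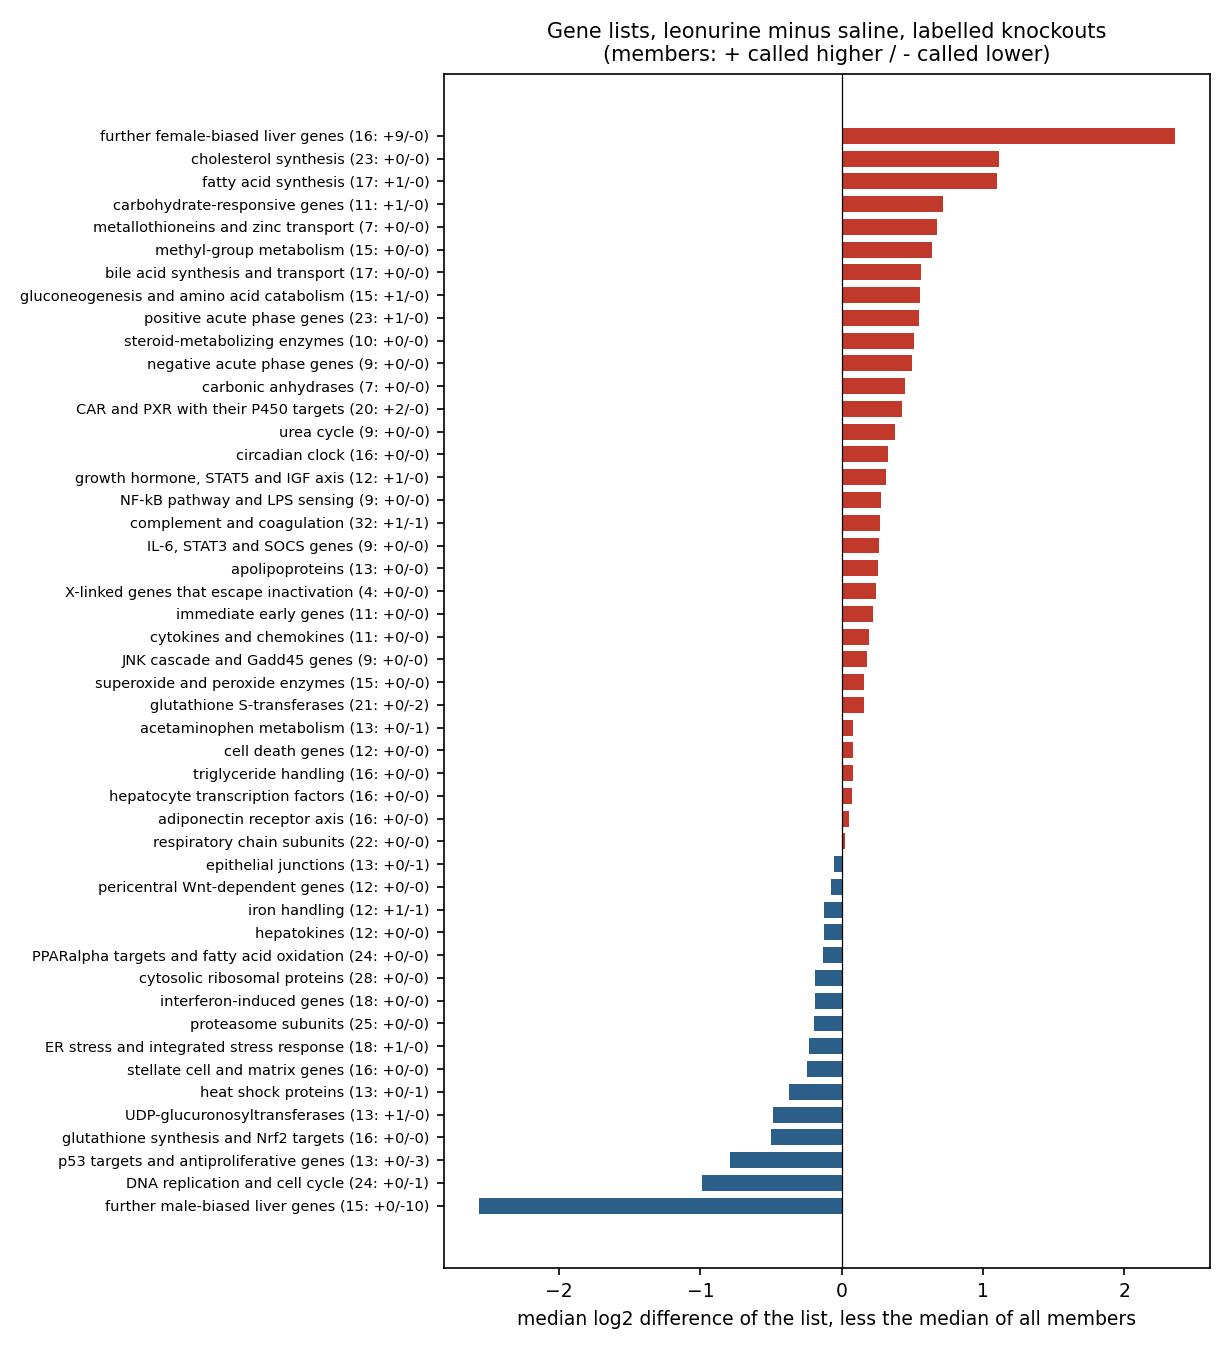
Median log2 difference, leonurine minus saline in the labelled knockouts, of each gene list less the median of all members, with the number of members and of members called higher and lower in parentheses. Beyond the sex-biased lists at the ends, cholesterol synthesis and fatty acid synthesis lay highest, at 1.11 and 1.10 above all members, and DNA replication and cell cycle lay lowest, at -0.99.

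Lipid synthesis genes lay higher with leonurine in the labelled knockouts, although few passed the test singly. Of 17 fatty acid synthesis members, 1 was called higher and none lower, and the median log2 difference was 0.91 against -0.19 over all members. Both leonurine libraries lay above both saline libraries in 12 of the 17, against 8.61% of all genes tested. Saline library 1 lay lowest, and the median relative to all members was 0.64 without it and 1.66 without saline library 2, against 1.10 with both. The called gene was Thrsp, a lipogenic nuclear protein of hepatocytes, at 536 and 519 FPKM in leonurine libraries against 67.9 and 199 FPKM in saline libraries (log2 difference 2.17 ± 0.44, adjusted p = 0.0389). The Thrsp call ended without leonurine library 1 or 2, saline library 1 or any wild-type saline library, with adjusted p up to 0.138. Acss2, which makes acetyl-CoA from acetate, was at 143 and 58.5 FPKM against 16.5 and 41.4 FPKM (log2 difference 1.77 ± 0.48, adjusted p = 0.0941). Lpin1, a phosphatidate phosphatase, was at 62.7 and 80.8 FPKM against 24.4 and 33.2 FPKM (log2 difference 1.29 ± 0.31, adjusted p = 0.0691). Scd1, the stearoyl-CoA desaturase, was at 1651 and 597 FPKM against 70.1 and 998 FPKM, so that its groups overlapped (adjusted p = 0.301).

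The 23 cholesterol synthesis members had none called in either direction by limma, with 16 at an unadjusted p under 0.05. Both leonurine libraries lay above both saline libraries in 19 of the 23, against 8.61% of all genes tested, and the median log2 difference was 0.93. Without saline library 1 the median relative to all members was 0.72, against 1.11 with it. Hmgcs1, the synthase that makes HMG-CoA, was at 89.1 and 73.3 FPKM in leonurine libraries against 27.0 and 38.0 FPKM in saline libraries (log2 difference 1.31 ± 0.35, adjusted p = 0.0891). Mvd and Mvk, later enzymes of the mevalonate route, had log2 differences of 1.67 ± 0.46 and 0.93 ± 0.27 (adjusted p = 0.0982 and 0.11). Saline library 1 was the lower of the saline pair for Hmgcs1, Mvd and Mvk. Of 11 carbohydrate-responsive members, Rgs16 was the 1 called, and the median was 0.53. Separate groups on the higher side were seen in 7 of the 11, against 8.61% of all genes tested. Pklr, the liver pyruvate kinase, was at 108 and 71.4 FPKM with leonurine and 41.4 and 55.2 FPKM with saline (adjusted p = 0.198).

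Amino acid and one-carbon genes lay higher too. Hal, which breaks down histidine, was at 124 and 142 FPKM in leonurine libraries against 43.2 and 74.3 FPKM in saline libraries and was the 1 called of 15 gluconeogenesis and amino acid catabolism members (log2 difference 1.21 ± 0.25, adjusted p = 0.0416). The median of these 15 was 0.55 relative to all members, 0.13 without leonurine library 2 and 0.23 without saline library 2. The Hal call ended without leonurine library 1 or 2, saline library 1 or any 1 wild-type saline library, with adjusted p up to 0.171. Of 15 methyl-group metabolism members none was called by limma and 6 had an unadjusted p under 0.05, with a median of 0.45. Separate groups on the higher side were seen in 11 of the 15, against 8.61% of all genes tested. Gnmt, the glycine methyltransferase that is abundant in liver, was at 1593 and 1054 FPKM against 616 and 613 FPKM (adjusted p = 0.0927). The 9 urea cycle members and 17 bile acid members had none called by limma (2 and 6 at an unadjusted p under 0.05), with medians of 0.19 and 0.37. Relative to all members these were 0.37 and 0.56, with 0.21 for the urea cycle without leonurine library 2 and 0.34 for bile acid genes without leonurine library 1. Cyp8b1, the sterol 12-hydroxylase of bile acid synthesis, was at 52.9 and 76.3 FPKM against 37.2 and 6.45 FPKM (adjusted p = 0.121).

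Cell cycle genes lay lower with leonurine. Of 24 DNA replication and cell cycle members 1 fell and none rose, against 1.49% and 0.603% of all genes tested. The median log2 difference was -1.18. Both leonurine libraries lay below both saline libraries in 18 of the 24, against 40.8% of all genes tested. In each library, relative to wild-type saline and to all members, the list lay at 0.40 and -0.80 in leonurine libraries against 0.76 and 0.69 in saline libraries. Leonurine library 2 lay furthest from the saline libraries, and the median difference relative to all members was -0.32 without it and -1.71 without leonurine library 1, against -0.99 with both. The called gene was Ccne1, the G1 to S cyclin E1, at 1.73 and 0.795 FPKM with leonurine and 5.69 and 5.17 FPKM with saline (log2 difference -1.54 ± 0.29, adjusted p = 0.0284). Its call ended without leonurine library 2, either saline library or any 1 wild-type saline library, with adjusted p up to 0.148. Its paralogue Ccne2 was at 1.63 and 1.14 FPKM against 6.20 and 5.13 FPKM (adjusted p = 0.0506). Mki67, a marker of dividing cells, was at 5.78 and 2.05 FPKM against 9.29 and 13.3 FPKM (adjusted p = 0.0854), and Top2a, the topoisomerase of dividing cells, at 5.89 and 1.79 FPKM against 9.30 and 14.2 FPKM (adjusted p = 0.0924). Leonurine library 2 was the lower of its pair for all 4 of these genes. In bulk liver, fewer cells of a type and less RNA per cell cannot be told apart.

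Genes induced by p53 or known to restrain growth lay lower in the same libraries. Of 13 members 3 fell and none rose, against 1.49% and 0.603% of all genes tested, and the median was -0.98. Separate groups on the lower side were seen in 9 of the 13, against 40.8% of all genes tested. Ccng1, a p53-induced cyclin, was at 12.4 and 13.6 FPKM in leonurine libraries against 28.9 and 28.8 FPKM in saline libraries (log2 difference -1.09 ± 0.20, adjusted p = 0.0284). Plk2, a p53-responsive kinase, was at 3.51 and 2.24 FPKM against 6.19 and 11.9 FPKM (log2 difference -1.33 ± 0.26, adjusted p = 0.0355). Btg3, an antiproliferative gene, was at 1.32 and 1.41 FPKM against 5.93 and 6.74 FPKM (log2 difference -1.63 ± 0.32, adjusted p = 0.0341). Each of the 3 calls ended without leonurine library 1 or 2, without saline library 2 and without wild-type saline library 3. The Ccng1 and Btg3 calls also ended without saline library 1, the Ccng1 and Plk2 calls without wild-type saline library 1, and the Plk2 call without wild-type saline library 2. Mdm2, the p53-induced ubiquitin ligase, was at 2.88 and 3.12 FPKM against 5.69 and 8.27 FPKM (adjusted p = 0.0604), and Gdf15, a stress-induced hormone of injured liver, at 4.75 and 3.91 FPKM against 14.0 and 10.8 FPKM (adjusted p = 0.0747).

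Among stress genes, Hsp90aa1, the inducible cytosolic HSP90, was at 49.7 and 35.7 FPKM in leonurine libraries against 104 and 126 FPKM in saline libraries (log2 difference -1.42 ± 0.27, adjusted p = 0.0303). It was the 1 called of 13 heat shock members, of which 8 had separate groups on the lower side, against 40.8% of all genes tested. The Hsp90aa1 call ended without leonurine library 2, either saline library or wild-type saline library 3. Chac1, a glutathione-degrading enzyme of the integrated stress response, was at 5.16 and 4.94 FPKM against 1.88 and 0.841 FPKM and was the 1 called of 18 endoplasmic reticulum stress members (log2 difference 1.39 ± 0.28, adjusted p = 0.0353). The Chac1 call ended without leonurine library 1 or 2, saline library 2 or any 1 wild-type saline library, with adjusted p up to 0.114. Asns, the asparagine synthetase induced by the same response, was on the other side of zero, at 0.274 and 0.975 FPKM against 2.44 and 3.49 FPKM (adjusted p = 0.0709). Neither the 12 cell death members nor the 9 members of the JNK and Gadd45 list held a call by limma, with 1 and 2 at an unadjusted p under 0.05.

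Between 0 and 2 members of each detoxification list were called. Of all genes tested 0.603% were called higher and 1.49% lower, and the lists hold too few members for 1 or 2 calls to be set against such shares. Among 13 acetaminophen metabolism members and 21 glutathione S-transferases, Gstp1 fell, at 478 and 216 FPKM in leonurine libraries against 2159 and 2034 FPKM in saline libraries (log2 difference -2.70 ± 0.38, adjusted p = 0.00655, and 0.0636 without saline library 1). Gstp1 encodes the pi-class transferase and is on the male-biased list. Its neighbouring copy Gstp2, with which reads can be shared, was at 3.41 and 1.64 FPKM against 17.0 and 25.4 FPKM (log2 difference -2.67 ± 0.48, adjusted p = 0.0245). The Gstp2 call ended without leonurine library 2, either saline library or wild-type saline library 3, with adjusted p up to 0.109. Of 16 members for glutathione synthesis and targets of the oxidant sensor Nrf2 none was called by limma, 8 had an unadjusted p under 0.05, 9 had separate groups on the lower side, against 40.8% of all genes tested, and the median was -0.69. Relative to all members that median was -0.50, and -0.30 without leonurine library 2. Srxn1, the sulfiredoxin, was at 14.2 and 9.01 FPKM with leonurine and 27.6 and 20.9 FPKM with saline (adjusted p = 0.0941), and Gsr, the glutathione reductase, at 17.9 and 12.5 FPKM against 28.0 and 25.5 FPKM (adjusted p = 0.0799).

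Of 13 glucuronosyltransferases, Ugt1a5 rose and none fell, and the median was -0.67, or -0.48 relative to all members. Separate groups on the lower side were seen in 8 of the 13, against 40.8% of all genes tested. Ugt1a6a, an isoform of the phenol-conjugating type, was at 9.41 and 9.998 FPKM in leonurine libraries against 19.5 and 17.3 FPKM in saline libraries (adjusted p = 0.0535). Of 20 members of the list of the xenobiotic receptors CAR and PXR with their P450 targets, 2 rose, Cyp3a16 and Cyp2c39, and none fell. Cyp2c39 was at 4.19 and 4.01 FPKM against 1.74 and 1.96 FPKM (log2 difference 0.84 ± 0.16, adjusted p = 0.0334), a call that ended without any 1 labelled knockout or wild-type saline library. Cyp3a11, the main Cyp3a enzyme of mouse liver, was at 392.4 and 759 FPKM against 3202 and 1134 FPKM (adjusted p = 0.218). Metallothioneins, the zinc-binding proteins induced by metals and stress, and zinc transporters had none called by limma among 7 members and 3 at an unadjusted p under 0.05, with Mt1 at 359 and 375 FPKM with leonurine and 139 and 40.7 FPKM with saline (adjusted p = 0.0961).

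Of 23 positive acute phase members, whose products hepatocytes secrete in inflammation, 1 rose and none fell. Of them 7 had separate groups on the higher side and none on the lower, against 8.61% and 40.8% of all genes tested. The median was 0.36, or 0.54 relative to all members, and relative to all members it was 0.33 without leonurine library 2 and 0.17 without saline library 2. Orm3, an orosomucoid, was at 10.8 and 22.6 FPKM in leonurine libraries against 1.65 and 2.31 FPKM in saline libraries (log2 difference 2.50 ± 0.40, adjusted p = 0.0133). Its call ended without leonurine library 2 (0.0689) or either saline library (0.109 and 0.0512). Stat3, the transducer of interleukin-6, was at 30.9 and 50.6 FPKM against 35.1 and 30.6 FPKM, and its feedback inhibitor Socs3 at 2.82 and 15.6 FPKM against 6.03 and 3.89 FPKM, so that in both genes the groups overlapped. Neither the 11 cytokine and chemokine members nor the 18 interferon-induced members held a call by limma, with 2 and 1 at an unadjusted p under 0.05.

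Marker sums of some other cells differed between the groups. Neutrophil markers (9 in the table, of which 3 met the level rule for members) summed to 26.4 and 65.2 FPKM in leonurine libraries against 14.4 and 6.16 FPKM in saline libraries. Most of each sum came from S100a8 (8.47 and 24.6 against 7.36 and 2.18 FPKM) and S100a9 (13.6 and 26.2 against 6.15 and 2.73 FPKM). The markers below the rule lay at low levels, and Retnlg among them overlapped between the groups. Ngp, a neutrophil granule protein named here because it was 1 of 2 cell type markers called, was at 2.12 and 6.68 FPKM against 0.0241 and 0.497 FPKM (log2 difference 1.98 ± 0.41, adjusted p = 0.0429). The other was Alas2, the erythroid enzyme of haem synthesis, at 16.6 and 17.4 FPKM against 51.3 and 42.5 FPKM (log2 difference -1.41 ± 0.27, adjusted p = 0.0333). The summed erythroid markers, mostly globins, overlapped between the groups, at 782 and 360 FPKM against 401 and 241 FPKM. T and NK cell markers summed to 3.28 and 3.44 FPKM against 0.811 and 1.32 FPKM, without overlap. None of these 6 markers met the level rule for members, so their sums rest on low levels. Kupffer cell markers summed to 226 and 323 FPKM against 267 and 320 FPKM, with overlap. The Ngp call ended without leonurine library 2, either saline library or any 1 wild-type saline library, and the Alas2 call without any 1 labelled knockout library or wild-type saline library 2 or 3. The part of these cells in the acute phase, cytokine and iron values was not tested.

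In iron handling 1 of 12 members rose, Hamp2, and 1 fell, Id1. Of all genes tested 0.603% were called higher and 1.49% lower. This list and the complement and coagulation list below hold too few members for 1 call to be set against such shares. Id1, a target of the BMP signal that drives hepcidin, was at 7.95 and 6.32 FPKM in leonurine libraries against 23.9 and 21.1 FPKM in saline libraries (log2 difference -1.54 ± 0.33, adjusted p = 0.0494). The Id1 call ended without any 1 labelled knockout library or wild-type saline library 3, with adjusted p up to 0.198. Tfrc, the transferrin receptor, was at 3.31 and 2.84 FPKM against 5.49 and 6.37 FPKM (adjusted p = 0.115). Of 32 complement and coagulation members on their list, 1 rose, F7, the factor that starts the extrinsic clotting route, at 89.3 and 65.7 FPKM against 36.6 and 42.1 FPKM (log2 difference 0.95 ± 0.20, adjusted p = 0.0429). On the same list C9, a pore-forming complement component, fell, at 138 and 210.1 FPKM against 424 and 359 FPKM (log2 difference -1.19 ± 0.23, adjusted p = 0.0344). Both calls ended without leonurine library 1, either saline library or any 1 wild-type saline library.

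For the axis named in the series title, none of 16 adiponectin receptor axis members was called higher or lower (limma; none of them at an unadjusted p under 0.05). Of all genes tested 0.603% were called higher and 1.49% lower, so a count of 0 among 16 is near the share of all genes. The list had a median of -0.14 against -0.19 over all members. Calm2, which encodes calmodulin, was at 119 and 79.5 FPKM in leonurine libraries against 149 and 115 FPKM in saline libraries (adjusted p = 0.307). Prkaa1, a catalytic subunit of AMPK, was at 1.99 and 2.19 FPKM against 2.58 and 3.22 FPKM (adjusted p = 0.232). The 24 members for PPAR-alpha targets and fatty acid oxidation had none called by limma and 4 at an unadjusted p under 0.05, 12 with separate groups on the lower side, against 40.8% of all genes tested, and a median of -0.32, or -0.13 relative to all members. Respiratory chain, ribosomal protein and proteasome lists of 22, 28 and 25 members also had none called by limma (1, 2 and 7 at an unadjusted p under 0.05), with medians of -0.17, -0.38 and -0.38, or 0.02, -0.19 and -0.19 relative to all members. The sign of these relative medians hung on single libraries. Without saline library 1 the PPAR-alpha list was at 0.077, the ribosomal list at 0.084 and the proteasome list at 0.006, without leonurine library 1 the PPAR-alpha list was at 0.029 and the respiratory chain at -0.052, and without saline library 2 the respiratory chain was at -0.17. No member was called by limma among apolipoproteins (13 members), hepatokines (12), negative acute phase genes (9), interleukin-6 and STAT3 genes (9), NF-kB genes (9), peroxide enzymes (15), pericentral genes (12), carbonic anhydrases (7), steroid enzymes (10), triglyceride genes (16), immediate early genes (11), clock genes (16), hepatocyte transcription factors (16) and stellate cell matrix genes (16). Between 0 and 5 members of each of these lists had an unadjusted p under 0.05.

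The same comparison in wild-type libraries called more members. Over all genes tested, 1.9% were called higher and 4.72% lower in wild type, and among the members 173 rose and 480 fell. The difference between the responses (labelled knockout minus wild type), a comparison in which the responses share no control libraries, was called higher for 1.71% and lower for 2.03% of all genes tested. Among the members these were 165 higher and 183 lower. Of these 348, 81 were called in the labelled knockouts alone, 169 in wild type alone, 16 in both and 82 in neither. Of the 183 members called in the labelled knockouts, 97 were called for the difference and 86 were not. Of the same 183, 31 were also called in wild type, 18 in the same direction and 13 in the opposite direction. The 2 wild-type leonurine libraries stood apart from each other, and without wild-type leonurine library 1 or 2 the higher calls for the difference numbered 544 or 95. Those higher calls numbered 55 without leonurine library 1 and 38 without saline library 1 of the labelled knockouts, and 90, 46 and 50 without each wild-type saline library. The lower calls numbered 44 and 97 without saline libraries 1 and 2 of the labelled knockouts, and 100, 48 and 59 without each wild-type saline library.

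**Figure D4:**
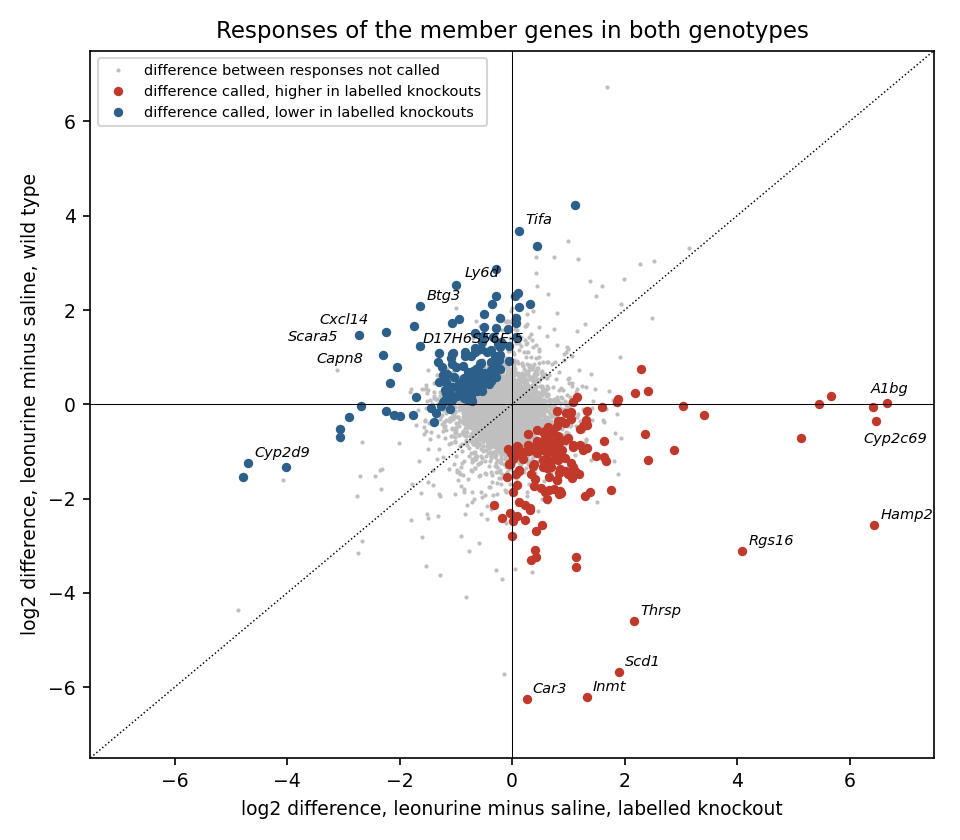
Log2 difference, leonurine minus saline, of each member gene in labelled knockouts (horizontal axis) and in wild type (vertical axis), with the dotted line marking equal responses. Coloured genes are the 165 called higher and 183 called lower for the difference between the responses, and the 16 named ones are the largest in each direction, from Hamp2 at 8.996 to Scara5 at -4.20.

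Lipogenic genes lay higher with leonurine in labelled knockouts and lower in wild type. Of 17 fatty acid synthesis members 8 were called higher for the difference and none lower, and 8 had fallen in wild type. Over all genes tested these shares were 1.71% and 2.03% for the difference and 4.72% for falls in wild type. Thrsp was at 9.34 and 4.997 FPKM in wild-type leonurine libraries against 221, 189 and 167 FPKM in wild-type saline libraries, so the log2 response was 2.17 in labelled knockouts and -4.61 in wild type, a difference of 6.78 ± 0.59 (adjusted p = 0.000479). Scd1 was at 37.0 and 13.3 FPKM in wild-type leonurine libraries against 1431, 1376 and 874 FPKM in wild-type saline libraries, a difference between responses of 7.58 ± 1.39 (adjusted p = 0.0224). The Scd1 call ended in 4 of the 9 leave-one-out fits, with adjusted p up to 0.0694. Lpin1 and Acss2 had differences of 3.23 ± 0.42 and 3.58 ± 0.65 (adjusted p = 0.00601 and 0.0218). Of the cholesterol members 4 were called higher for the difference, among them Insig1, Sc5d and Stard4 at 2.29, 1.89 and 1.44, which are named because the count was small. Rgs16, Pklr and Khk, the fructose kinase, were called higher among the carbohydrate-responsive members, at 7.20, 2.75 and 1.88.

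Inmt, an indolethylamine methyltransferase, and Car3, an abundant carbonic anhydrase, differed through the wild-type side. Inmt was at 933 and 435 FPKM in leonurine-treated labelled knockouts against 212 and 303 FPKM in saline-treated ones, and at 12.2 and 0.426 FPKM in wild-type leonurine libraries against 367, 307 and 292 FPKM in wild-type saline libraries (difference 7.54 ± 1.10, adjusted p = 0.00933). Car3 was at 1125 and 572 FPKM against 696 and 648 FPKM in labelled knockouts and at 30.4 and 1.75 FPKM against 555, 942 and 686 FPKM in wild type (difference 6.52 ± 1.18, adjusted p = 0.0218). The call ended in 1 of 9 leave-one-out fits for Inmt and in 5 of 9 for Car3. Hamp2, Rgs16, Cyp2c69 and A1bg, described above, were also among the 8 largest, at 8.996, 7.20, 6.81 and 6.65.

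Of the 8 largest named differences on the lower side, all but that of Cyp2d9 were in genes that lay higher with leonurine in wild type. Cyp2d9 fell in both, at log2 differences of -4.70 in labelled knockouts and -1.25 in wild type. The wild-type rises of Tifa, Btg3 and Ly6d were called. Those of Scara5, Cxcl14, D17H6S56E-5 and Capn8 were not (limma, adjusted p between 0.0744 and 0.103). Tifa, an adaptor of innate immune signalling, was at 4.12 and 5.82 FPKM in leonurine-treated and 4.79 and 4.13 FPKM in saline-treated labelled knockouts, but at 61.4 and 66.9 FPKM in wild-type leonurine libraries against 4.28, 4.42 and 3.56 FPKM in wild-type saline libraries (difference -3.56 ± 0.24, adjusted p = 0.000118). Btg3 was called in opposite directions in the 2 genotypes, at log2 differences of -1.63 in labelled knockouts and 2.09 in wild type (difference -3.72 ± 0.43, adjusted p = 0.00277). Ly6d, a surface protein of the Ly6 family, was at 13.8 and 25.2 FPKM against 51.8 and 28.1 FPKM in labelled knockouts, and at 277 and 278 FPKM against 45.3, 69.0 and 33.3 FPKM in wild type (difference -3.53 ± 0.53, adjusted p = 0.0106). Capn8, a calpain protease best known from stomach, was at 0.0199 and 0.276 FPKM with leonurine and 3.21 and 6.45 FPKM with saline in labelled knockouts, where its fall was called (log2 difference -2.29 ± 0.34, adjusted p = 0.0097). The Capn8 fall in labelled knockouts was no longer called without leonurine library 1 or saline library 2, and its difference from wild type was -3.35 ± 0.46 (adjusted p = 0.00726). Cxcl14, a chemokine, and Scara5 had differences of -3.77 and -4.20 whose calls ended in 5 and 1 of the 9 leave-one-out fits, and D17H6S56E-5 had -3.40, ended in 7.

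Acute phase genes also gave calls for the difference. Of all genes tested 0.603% rose in labelled knockouts, 1.9% rose in wild type and 2.03% were called lower for the difference. Of 23 positive acute phase members 1 rose with leonurine in labelled knockouts and 18 in wild type, with median responses of 0.36 in labelled knockouts and 1.89 in wild type, and 3 were called lower for the difference. These were Lcn2, which encodes the iron-siderophore-binding lipocalin, Serpina3n, a protease inhibitor, and Steap4, a metalloreductase, the last 2 of which are named because the count was small. Lcn2 was at 943 and 669 FPKM in leonurine-treated and 512 and 263 FPKM in saline-treated labelled knockouts, and at 4251 and 7994 FPKM in wild-type leonurine libraries against 545, 262 and 204 FPKM in wild-type saline libraries (difference -3.13 ± 0.68, adjusted p = 0.0399). Serpina3n had a difference of -2.92 and Steap4 of -3.15 (adjusted p = 0.0213 and 0.00277). Neutrophil markers summed to 153 and 64.5 FPKM in wild-type leonurine libraries against 46.8, 11.4 and 9.70 FPKM in wild-type saline libraries, and their part in this difference was not tested.

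Acetaminophen metabolism, glutathione S-transferases and glucuronosyltransferases had 1, 2 and 0 members called lower in labelled knockouts, against 9, 12 and 9 called lower in wild type. Of all genes tested 1.49% were called lower in labelled knockouts, 4.72% lower in wild type and 1.71% higher for the difference. The difference itself was called higher for 1, 0 and 2 members of these lists, so the larger count in wild type was not shown to differ gene by gene. An unadjusted p under 0.05 for the difference (limma) was reached by 8 of 13, 16 of 21 and 6 of 13 members. Over all 10079 members it was reached by 2036. The median differences of these lists were 0.94, 1.45 and 0.62, against -0.06 over all members. A called gene was Ugt1a1, the bilirubin-conjugating enzyme, at 108 and 108 FPKM in leonurine-treated and 62.6 and 64.1 FPKM in saline-treated labelled knockouts, against 44.0 and 24.7 FPKM in wild-type leonurine and 60.3, 83.0 and 60.9 FPKM in wild-type saline libraries (difference 1.77 ± 0.36, adjusted p = 0.0323). Slc10a1, the sodium-dependent bile acid importer, and Slc27a5, a bile acid CoA ligase, had differences of 1.49 ± 0.34 and 1.39 ± 0.25 (adjusted p = 0.0451 and 0.0218). Cell cycle genes had medians of -1.18 in labelled knockouts and 0.25 in wild type, and none of the 24 was called for the difference by limma, with 11 at an unadjusted p under 0.05.

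**Figure D5:**
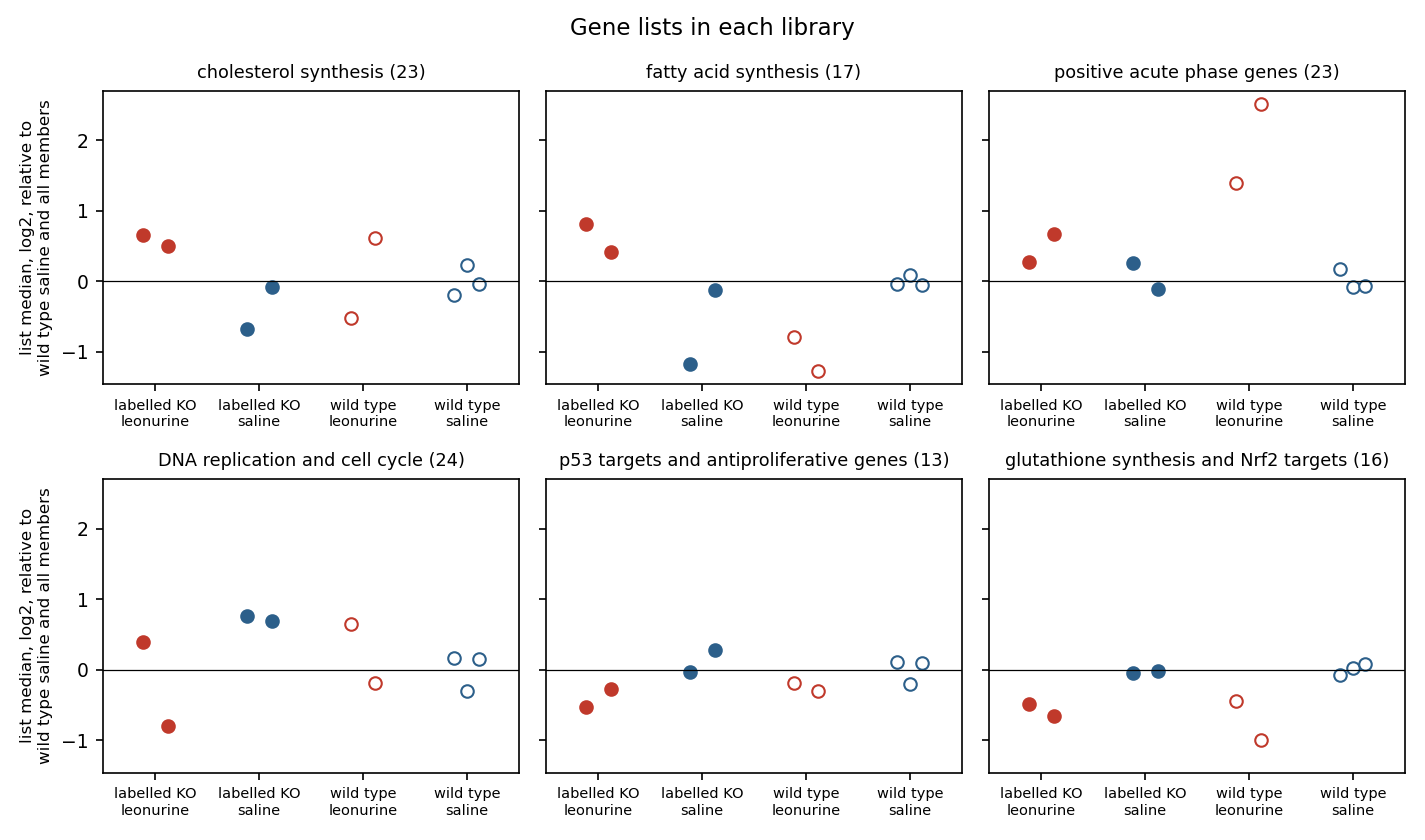
Median of 6 gene lists in each of the 9 libraries on a log2 scale, relative to the wild-type saline libraries and to all members of the same library (filled points labelled knockouts, open points wild type, red leonurine, blue saline). In fatty acid synthesis the labelled knockout leonurine libraries lay at 0.81 and 0.41 against -1.18 and -0.13 with saline, while for acute phase genes the wild-type leonurine libraries lay highest, at 1.39 and 2.52.

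Within 10 Mb of Adipor2 on chromosome 6 lay 126 members, of which 2 were called, both lower, a share near the 1.49% of all genes tested that were called lower. Cd163, a haemoglobin scavenger receptor of macrophages, was at 5.10 and 5.55 FPKM in leonurine libraries against 11.1 and 9.81 FPKM in saline libraries (log2 difference -0.85 ± 0.15, adjusted p = 0.0252). The Cd163 call ended without any 1 labelled knockout or wild-type saline library, and with median-ratio scaling (-0.67, adjusted p = 0.116) or quantile normalization (adjusted p = 0.154). Clstn3, a calsyntenin, was at 0.882 and 0.745 FPKM against 3.75 and 3.70 FPKM (log2 difference -1.38 ± 0.16, adjusted p = 0.00177). Of 4 X-linked genes known to escape X inactivation none was called by limma or had an unadjusted p under 0.05, and Kdm5c was at 7.39 and 8.49 FPKM against 5.49 and 7.06 FPKM (adjusted p = 0.281). Xist, the other gene of that list, was not in the expression table and could not be compared. Cd163 and Clstn3 were chosen for naming after their values had been seen.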

How the data were processed

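Liver RNA was sequenced as 9 libraries, and the authors deposited FPKM values for 16857 genes, with fastp, HISAT2, HTSeq, R 3.2.0 and the mm10 build named in the submitters' processing notes; their roles are not given in the sources used here. FPKM values were whole multiples of 1 fragment for 16857 of 16857 genes (tolerance 0.0001), which gave the fragment totals. Because the deposited unit is FPKM, log2(FPKM + 1) was tested with limma 3.58.1 (R 4.3.3), with 1 mean per group over all 9 libraries, a trend in the prior variance (5 residual and 4.42 prior degrees of freedom) and Benjamini-Hochberg adjustment over 10451 genes with FPKM of at least 1 in at least 2 libraries. A gene was called at an adjusted p under 0.05. Adding 1 makes log2 differences too small for genes with low levels. The difference between the responses was a contrast in the same fit. Tables and plots were made with Python 3.11.15, pandas 2.3.3 and matplotlib 3.10.9. Coordinates and promoters are RefSeq on GRCm38.p6, matched by symbol for 16749 genes and by synonym for 3.

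The members and the 61 gene lists were chosen with earlier results of these data known. Genes were named by 1 rule: Adipor2, the 15 largest called rises and the 15 largest called falls whose groups did not overlap, the 8 largest called differences between responses in each direction, and up to 4 members of each list other than cell type lists with the smallest p, passing over predicted genes. Another 9 genes were named after their values were seen, because a count was 5 or fewer or a region held them, and the genes of the sex check were named to show the mismatch. The labels number the libraries in each group but give no shared animal or day, and same-numbered leonurine and saline libraries of the labelled knockouts did not deviate together (correlation 0.0406). The correlation was 0.158 between same-numbered leonurine libraries of labelled knockouts and wild type and 0.0328 between labelled knockout saline and wild-type leonurine, so not every pair deviated together and the numbers were not used as pairs. Alternatives were the pseudocount, the filter, scaling, the libraries in the fit, the prior variance, array weights, a replicate block and leaving out each library; the fits without the wild-type leonurine group and with the block in 4 libraries alone, and list medians without each labelled knockout library, were chosen after seeing the data. Some genes that the rule names are not reported here. Fragment totals bound counting error only.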

Additional observations from a re-analysis of the deposited data

Results flagged for a closer look

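The response to leonurine differed between labelled knockouts and wild type for the following named genes, by a test of the difference itself (limma, adjusted p under 0.05). Each value is the log2 response in labelled knockouts minus that in wild type, and none was weighed further. The Y-linked mismatch lies between the labelled knockout groups alone, so its part in these differences cannot be told apart from that of the treatment.

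Among the leading rises and sex-biased genes the difference was 8.996 for Hamp2, 7.20 for Rgs16, 6.81 for Cyp2c69, 6.65 for A1bg, 5.84 for Cyp2c40, 5.50 for Slc22a26, 5.45 for Cyp3a16, 3.85 for Ugt1a5, 3.62 for Slc22a27, 3.08 for Hao2, 2.996 for Cyp2g1, 2.12 for Cux2, 1.95 for Fmo2 and 1.56 for Aldh3b3. In lipid and carbohydrate metabolism it was 7.58 for Scd1, 6.78 for Thrsp, 3.58 for Acss2, 3.23 for Lpin1, 2.75 for Pklr, 2.40 for Lipc, 2.29 for Insig1, 1.89 for Sc5d, 1.88 for Khk and 1.44 for Stard4. For other metabolic, steroid and transport genes it was 7.54 for Inmt, 6.52 for Car3, 4.38 for Serpina6, 2.63 for Hsd17b6, 1.99 for Gnmt, 1.77 for Ugt1a1, 1.75 for Hal, 1.70 for Agxt, 1.49 for Slc10a1 and 1.39 for Slc27a5.

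On the lower side the difference was -3.45 for Cyp2d9, -3.26 for Nat8f5, -2.70 for Nat8, -2.65 for Serpina1e, -2.63 for Serpine2, -2.54 for C6, -2.37 for Susd4, -2.11 for Cdh1, -1.004 for Clstn3 and -0.995 for Cd163 among genes that fell in labelled knockouts. It was -4.20 for Scara5, -3.77 for Cxcl14, -3.72 for Btg3, -3.56 for Tifa, -3.53 for Ly6d, -3.40 for D17H6S56E-5, -3.35 for Capn8, -3.15 for Steap4, -3.13 for Lcn2, -2.92 for Serpina3n, -2.40 for Asns and -1.73 for Slc11a2 among genes that were higher with leonurine in wild type, of which Btg3, Capn8 and Scara5 also fell in labelled knockouts.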

How the results depend on the processing

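The counts of called members depended on the processing. For higher and lower members in labelled knockouts (50 and 133) and for the difference between the responses (165 and 183), fitting without a filter gave 24 and 70, and 31 and 44. A mean FPKM of at least 5 gave 30 and 77 in labelled knockouts, median-ratio scaling 103 and 69 with 351 higher differences, and quantile normalization 86 and 70 with 294 higher differences. The 4 labelled knockout libraries alone gave 27 and 53, array weights 29 and 47 (difference 95 and 82), and the fit without the wild-type leonurine group, chosen after seeing the data, 81 higher. The replicate block gave 28 and 62 (difference 40 and 36), or 20 and 37 with the 4 libraries alone, also added afterwards, although the numbers were not shown to pair the libraries. Leaving out 1 library at a time gave 22 to 81 higher and 41 to 200 lower members, and 38 to 544 higher and 44 to 232 lower differences. The cause was not tested, except that fits with fewer libraries had fewer degrees of freedom. A pseudocount of 0.1, no trend and adjustment over the members alone stayed within 1.5 times the counts. Of 50 called genes chosen for naming none changed direction in any fit, which was largely fixed in advance. The leading rises and falls were chosen for groups that do not overlap, so leaving out 1 library could not reverse them. Fits that left out wild-type libraries, or changed the filter, prior variance or weights, kept the same log2 difference. In fits with more than 1 library in every group, between 25 and 50 of these genes stayed called where all could be fitted. Some named genes that were not called changed sign. Leaving out 1 library at a time gave log2 differences of -0.0083 to 3.80 for Scd1, -0.23 to 0.74 for Car3, -0.089 to 0.32 for Tifa, -0.083 to 0.61 for Stat3, -0.62 to 1.5 for Socs3, -0.93 to 0.43 for Pim1, -0.048 to 0.81 for Nfkbiz, -1.40 to 0.19 for Inhbe, -0.44 to 0.025 for Fas, -0.55 to 0.12 for Mlkl, -0.54 to 0.22 for Ripk3, -0.070 to 0.17 for Eif2s3x, -0.22 to 0.12 for Kdm6a and -0.20 to 0.31 for Ddx3x. Under quantile normalization Alb was at 0, Fas at 0.0077, Ripk3 at 0.016 and Kdm6a at 0.14, and under median-ratio scaling Kdm6a was at 0.11.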
